A study of Mus musculus with 6 samples.

Results

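A group of 10 genes of the bone morphogenetic protein (BMP) pathway was followed in 4T1 cells, a mouse mammary carcinoma line, with and without added METTL7A1: the ligands Bmp4 and Bmp7, the receptors Bmpr1a and Bmpr2, the signal carriers Smad1 and Smad5, the inhibitory Smad6, and the target genes Id1, Id2 and Id3. These 10 of the 48587 genes in the table of counts were chosen by name, with the METTL7A1 against mock values of these same 6 libraries already known. Their folds, and their places against the thresholds below, are therefore given as a description and not as evidence of a difference. One group of 3 libraries came from 4T1 cells stably transfected with full-length Mettl7a1 cDNA in the vector pBICEP-CMV-2, in which the CMV promoter drives the insert, and selected with G418. The other 3 came from the mock cells of the same line, which carried the empty vector, also by stable transfection. The labels call each set of 3 biological replicates. Whether each line was 1 clone or a pool is not given in the sources used here, so a difference between the lines and a difference made by METTL7A1 cannot be told apart. Total RNA depleted of ribosomal RNA was sequenced, and a level is given below as cpm, the count of a gene relative to the library's total, with that total scaled for composition.

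BMPs are secreted proteins that bind a pair of membrane receptor kinases, a type I receptor such as BMPR1A and a type II receptor such as BMPR2. The type II kinase activates the type I kinase, which phosphorylates SMAD1, SMAD5 or SMAD9. These join SMAD4, enter the nucleus and switch on target genes, among which the Id genes are the best known. ID proteins carry a helix-loop-helix but no DNA-binding region, so they bind E proteins and keep them off DNA. SMAD6 and SMAD7, together with secreted antagonists such as noggin, hold the signal back. In mammary epithelium and its tumours, Id proteins are known for their link to an undifferentiated, dividing state.

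Library totals ranged from 18386780 to 28459338 counts, and the single most abundant gene took 7.72% to 13.1% of a library. The transfected gene itself was counted 6355, 11358 and 10398 times in the METTL7A1 libraries and 30, 30 and 29 times in the mock libraries, so each library matched its label. The epithelial markers Krt8, Krt18, Epcam, Cdh1 and Krt14 summed to 1419 to 1683 cpm in the METTL7A1 libraries and 1402 to 1714 cpm in the mock libraries. Within that sum the basal keratin gene Krt14, a small part of it, stood at 9.79 ± 0.722 cpm in METTL7A1 and 37.8 ± 1.16 cpm in mock (SD, n = 3 each). Leukocyte markers summed to 11.5 to 14.1 cpm against 4.87 to 6.28 cpm, nearly all of it Cd68, with Cd3e at 0 in every library. Fibroblast markers summed to 23.7 to 26.5 cpm against 17.3 to 19.7 cpm, nearly all of it Pdgfra. Endothelial markers summed to at most 0.779 cpm, and the mesenchymal gene Vim stood at 252 ± 27.6 cpm in METTL7A1 and 564 ± 59.5 cpm in mock (SD, n = 3 each). The part of these differences in the results was not tested. In bulk RNA, fewer cells expressing a gene and less RNA per cell cannot be told apart.

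The 3 Id genes were all lower in the METTL7A1 libraries, Id2 the most, while the ligand gene Bmp7 was about 7.29-fold higher and the receptors and Smads differed far less. Between groups, 42.1% of the 13166 genes past the filter on low counts differed at an adjusted p under 0.05 (edgeR's quasi-likelihood test), 21.1% higher and 21% lower in METTL7A1. Of the 10 BMP pathway genes, 9 passed the filter and 6 of those were past this threshold, Bmp7 and Bmpr2 higher and Smad5, Id1, Id2 and Id3 lower. The study used stricter limits, an adjusted p under 0.01 and a log fold change beyond 1.5, whose base it does not state for RNA-seq. With the log2 fold change taken for it, 2.48% of all tested genes passed, among them Bmp7 and Id2. The groups did not overlap for 8 of the 9 genes, against 51.6% of all tested genes. Since the contrast itself was known when the genes were chosen, nothing is read from these counts.

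**Figure D1:**
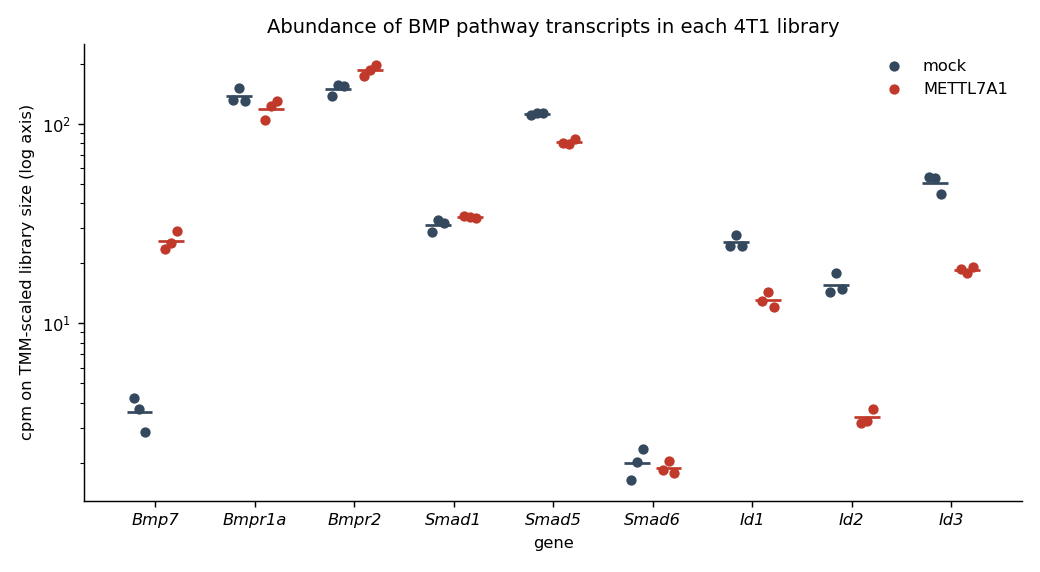
Level of each gene in every library in cpm on a log axis, with METTL7A1 and mock libraries side by side. Bmp7 stood higher and Id1, Id2 and Id3 lower in all 3 METTL7A1 libraries, while the Smad6 points of both groups lay among each other (Bmp4, at 0 in all libraries, is not drawn).

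Of the ligands, Bmp7, which signals through BMPR2 and activin receptors, was present in both lines. Its level was 23.6, 25.2 and 29.0 cpm in METTL7A1 replicates 1 to 3 and 4.21, 3.71 and 2.86 cpm in mock replicates 1 to 3. All METTL7A1 libraries lay far above all mock libraries, and the counts behind these levels were 438, 744 and 716 against 77, 90 and 71. The means were 25.9 ± 2.79 and 3.59 ± 0.684 cpm (SD, n = 3 each). METTL7A1 over mock, this was 2.87 on the log2 scale (SE 0.14). Bmp4, a ligand that binds BMPR1A with high affinity, had a count of 0 in all 6 libraries. A count of 0 allows up to 3 counts, or 0.102 to 0.164 cpm depending on the library, for counting error only. Of the stretches of 31 bases in the Bmp4 exons, 2.65% lie in Gm15217, an overlapping gene that was also at 0. Bmp7 lies on mouse chromosome 2 at chr2:172868012-172940321 and Bmp4 at chr14:46383520-46390669, both on the minus strand (GRCm38).

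Of the receptors, Bmpr2, the type II receptor, was slightly higher with METTL7A1 and Bmpr1a, a type I receptor, was slightly lower. Bmpr2 (chr1:59763400-59879014, plus strand) stood at 173, 185 and 197 cpm in the METTL7A1 libraries and 137, 156 and 154 cpm in the mock libraries. The groups did not overlap, and the log2 fold change was 0.31 (SE 0.08), which is 1.24-fold. Bmpr1a (chr14:34410734-34502687, minus strand) stood at 104, 122 and 129 cpm against 131, 151 and 130 cpm. The highest METTL7A1 library and the lowest mock library were nearly level. Its log2 fold change of -0.21 (SE 0.09) was not past the threshold. Gm17110, which overlaps Bmpr1a exons on the opposite strand, had at most 7 counts. Both receptor genes were thus expressed in both lines, at 118 ± 13.1 and 137 ± 11.9 cpm for Bmpr1a and 185 ± 12 and 149 ± 10.5 cpm for Bmpr2 (METTL7A1 and mock, SD, n = 3 each).

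Of the receptor-activated Smads, Smad5 was lower with METTL7A1 and Smad1 was not past the threshold. Smad5 (chr13:56703010-56742377, plus strand) stood at 79.6, 78.9 and 83.9 cpm in METTL7A1 and at 110, 114 and 113 cpm in mock. These groups were well separated, and the log2 fold change was -0.47 (SE 0.06). Smad1 (chr8:79338395-79399518, minus strand) stood at 34.4, 34.0 and 33.7 cpm against 28.6, 32.7 and 31.9 cpm. Every METTL7A1 library was above every mock library, but by little, with a log2 fold change of 0.13 (SE 0.08). Smad9, the remaining Smad of this class, did not pass the filter and had at most 11 counts. Among the 3, per kilobase of exon, Smad5 gave 72.1% ± 1.12 of the summed level in mock and 63.0% ± 1.01 in METTL7A1, and Smad1 gave 27.7% ± 1.05 and 36.8% ± 0.915 (SD, n = 3 each).

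Smad6 (chr9:63953076-64022059, minus strand), the inhibitory Smad and itself a target of the pathway, was close to the filter on low counts. It stood at 1.83, 2.03 and 1.78 cpm in METTL7A1 and 1.64, 2.02 and 2.33 cpm in mock, from 30 to 60 counts a library. The groups overlapped. The log2 fold change was -0.09 (SE 0.21), and at this depth a difference of that size was not detectable.

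The Id genes encode closely related proteins, and the stretch of their coding sequence around the helix-loop-helix is shown because all 3 genes were lower and reads could be shared between them where their sequences are alike. Capitals mark the bases identical in all 3, which are 56 of the 90 aligned (GRCm38 genome, coding strand, 5′ to 3′). Id1 is read from chr2:152736518-152736607 on the plus strand, Id2 from chr12:25095813-25095902 on the minus strand and Id3 from chr4:136144002-136144091 on the plus strand.
Id1: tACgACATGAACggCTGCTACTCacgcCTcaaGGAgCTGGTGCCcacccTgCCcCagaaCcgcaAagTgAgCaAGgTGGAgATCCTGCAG
Id2: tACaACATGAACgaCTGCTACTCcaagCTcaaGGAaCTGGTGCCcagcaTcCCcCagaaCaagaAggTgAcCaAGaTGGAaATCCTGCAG
Id3: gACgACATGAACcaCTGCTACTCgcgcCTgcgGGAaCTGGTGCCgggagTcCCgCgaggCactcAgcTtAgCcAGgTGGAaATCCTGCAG
Id1 and Id2 shared 73 of these bases (81.1%), Id1 and Id3 62 (68.9%) and Id2 and Id3 63 (70%). The longest unbroken run shared by a pair was 14 bases, between Id2 and Id3. Over whole annotated exons, no stretch of 31 bases of Id1 or Id3 was found in another annotated gene, and 1.6% of those of Id2 were, in the gene Gm6175.

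Id2 (chr12:25093801-25096092, minus strand) stood at 3.18, 3.25 and 3.73 cpm in METTL7A1 and at 14.3, 17.8 and 14.8 cpm in mock. The highest METTL7A1 library was far under the lowest mock library. From counts of 59, 96 and 92 against 262, 431 and 367, the log2 fold change was -2.20 (SE 0.14), a level 4.61-fold higher in mock. Id3 (chr4:136143497-136145392, plus strand), the most abundant of the Id genes per length in both lines, stood at 18.8, 17.9 and 19.1 cpm against 54.2, 53.2 and 44.5 cpm. The METTL7A1 libraries lay close together and well under the mock libraries, of which replicate 3 was the lowest. The log2 fold change was -1.45 (SE 0.09), a level 2.73-fold higher in mock. Id1 (chr2:152736251-152737410, plus strand) stood at 12.9, 14.4 and 12 cpm against 24.5, 27.6 and 24.3 cpm. Here too the groups were apart, with a log2 fold change of -0.96 (SE 0.10) and a level 1.94-fold higher in mock.

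The Id genes were thus lower to different degrees, and their make-up differed between the lines. Per kilobase of exon, the 3 summed to 28.5 ± 0.363 cpm in METTL7A1 and 73.9 ± 6.08 cpm in mock (SD, n = 3 each). Id2 gave 16.7% ± 1.38 of that sum in mock and 9.36% ± 0.895 in METTL7A1. Id1 gave 29.7% ± 1.42 in mock and 39.6% ± 3.04 in METTL7A1, so the Id1 share was the larger of the 2 where Id2 was low. Id3 gave 53.6% ± 2.70 and 51.0% ± 2.36, a smaller difference than for Id1 or Id2. Id4, the remaining family member, had a log2 fold change of -0.00 and was not past the threshold.

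**Figure D2:**
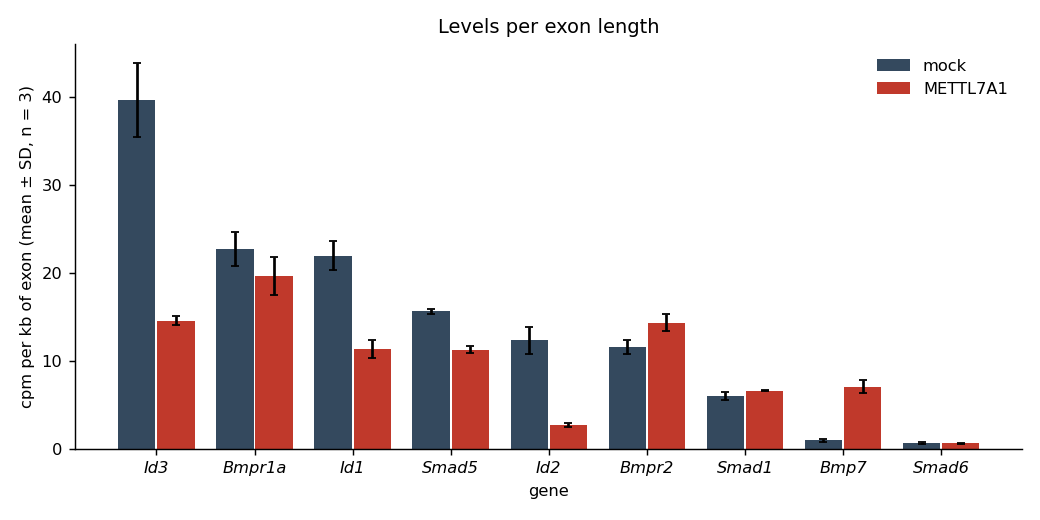
Mean level of each gene in cpm per kilobase of exon, as bars that start at 0 with SD over 3 libraries per group. Id3 had the highest bar in mock at 39.6 and Bmpr1a the highest in METTL7A1 at 19.6.

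Levels of different genes can be compared only per length, and on that scale the order of the genes changed between the lines. In mock, Id3 was highest with 39.6 ± 4.17 cpm per kilobase, followed by Bmpr1a with 22.7 ± 1.97 and Id1 with 21.9 ± 1.61, whose libraries overlapped. Smad5 followed with 15.6 ± 0.279, then Id2 with 12.3 ± 1.48 and Bmpr2 with 11.6 ± 0.818, which overlapped. Smad1 had 6.01 ± 0.422. Bmp7 with 0.979 ± 0.186 and Smad6 with 0.673 ± 0.117, whose libraries just overlapped, closed the order above Bmp4 at 0. In METTL7A1 the receptor Bmpr1a was highest with 19.6 ± 2.16, and Id3 with 14.5 ± 0.493 overlapped Bmpr2 with 14.3 ± 0.933. Id1 and Smad5, at 11.3 ± 1.01 and 11.3 ± 0.373, could not be ordered. Bmp7 had moved up beside Smad1, with 7.07 ± 0.761 against 6.58 ± 0.0662 and overlapping libraries. Id2 had 2.67 ± 0.236 and Smad6 0.634 ± 0.0441.

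**Figure D3:**
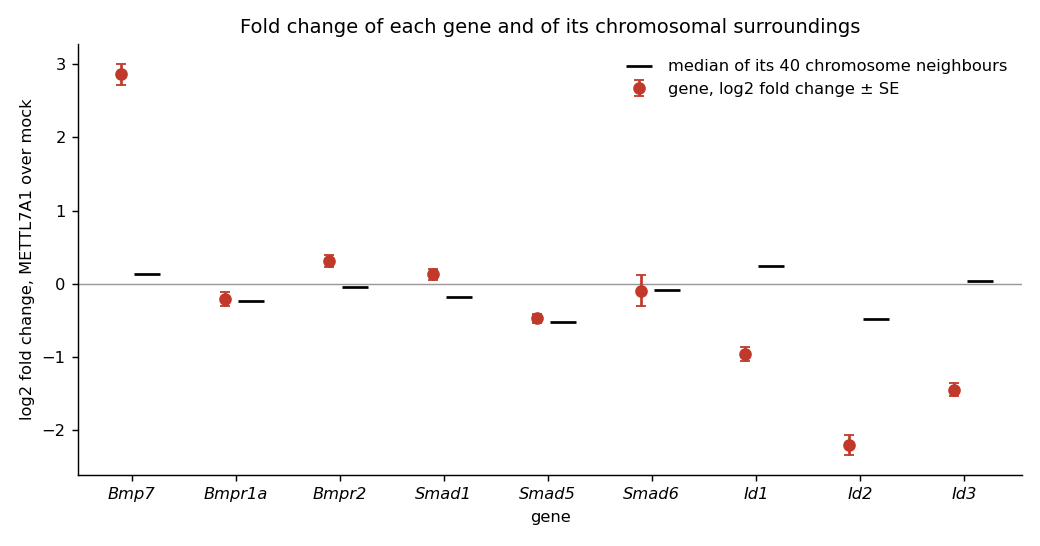
Log2 fold change of METTL7A1 over mock for each tested gene with its SE (3 libraries per group), beside the median of its 40 nearest tested neighbours on the chromosome. Bmp7 at 2.87 and Id1, Id2 and Id3 at -0.96, -2.20 and -1.45 lay away from their neighbours' medians, while Smad5 at -0.47 lay near its own of -0.52.

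Genes next to each other on a chromosome can differ together between 2 cell lines, so each gene was set beside its 40 nearest tested neighbours (by the distance between gene centres, among genes with a mean above 2 on the log2 cpm scale). Smad5 did not stand apart from them. Of its neighbours, 39 of 40 were lower in METTL7A1, 33 of these past the threshold, with a median log2 fold change of -0.52. With each gene's neighbour median taken off as an offset, Smad5 came to 0.05, Bmpr1a came to 0.02 and Smad1 came to 0.31. Smad5 was then no longer past the threshold, while Smad1 was. Around Id2, 37 of 40 neighbours were lower, 30 of them past the threshold, with a median of -0.48, yet the lowest neighbour was at -0.93 and Id2 was under all 40. The Id2 neighbours were spread from -8153 to 8045 kb around it, against -1900 to 1769 kb for Id3. Their median is therefore that of a wide region and not of the close surroundings of Id2. Around Id1 the neighbours went the other way: 36 of 40 were higher, with a median of 0.25, and Id1 was again under all 40. The Id3 neighbours were mixed, 19 of 40 lower with a median of 0.03 and the lowest at -0.64. Relative to their neighbours, Id1, Id2 and Id3 stood at -1.20, -1.73 and -1.48, which narrowed the gap between the Id genes. The part of gene copy number or chromosome neighbourhood in these values was not tested.

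Bmp7 lay above all 40 of its neighbours, whose median was 0.13. The neighbour nearest to it in size of change was Spo11, a gene of meiotic recombination whose centre lies 82.5 kb away, with counts of 208, 281 and 186 in METTL7A1 and 30, 33 and 33 in mock. Its log2 fold change was 2.71 (SE 0.20). The next genes on the same side were not higher: Rae1, 104 kb from Bmp7, was at -0.08 and Rbm38, just beyond it, at -0.55. These 3 neighbours were named after their values were seen. Bmpr2 stood above 34 of its 40 neighbours, at 0.36 relative to their median of -0.05.

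**Figure D4:**
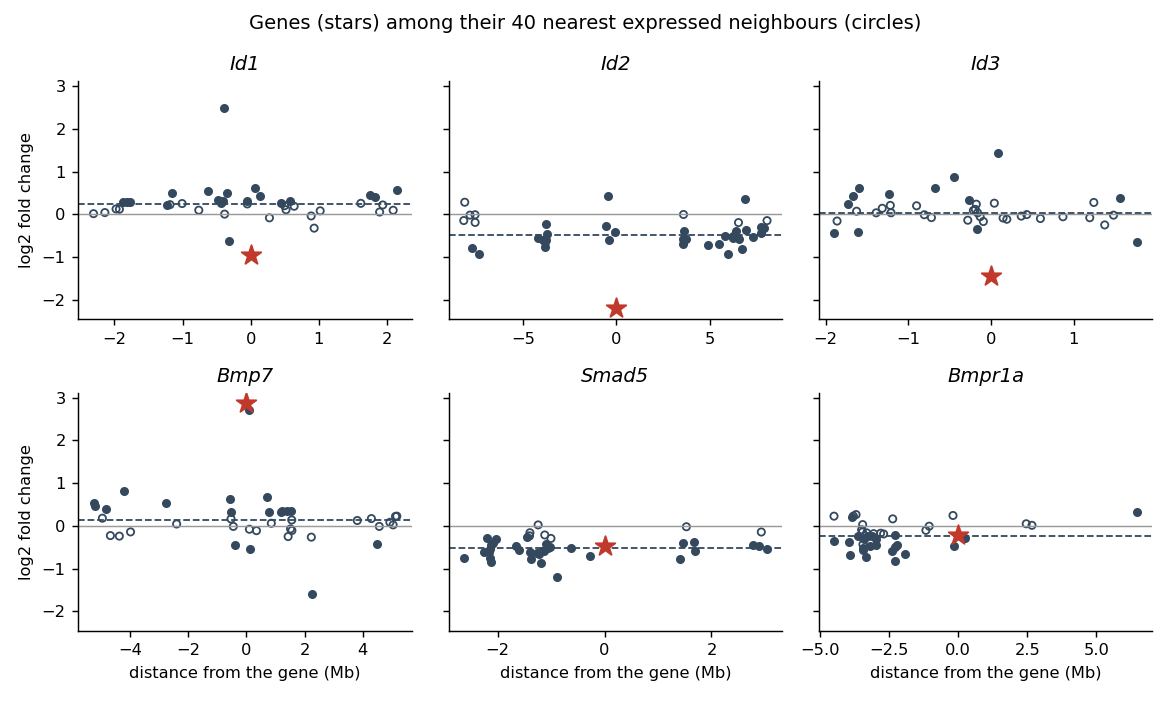
Log2 fold change of 6 of the genes (stars) and of the 40 nearest tested genes around each (circles, filled where the adjusted p was under 0.05) against distance in Mb, with the neighbours' median as a dashed line. The stars of Id1, Id2 and Id3 lie under all circles of their panels and that of Bmp7 above all, while those of Smad5 and Bmpr1a lie among them.

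Beyond these 10 genes, 61 other genes of the pathway were listed by role. Their adjusted p-values are given (edgeR, over all 13166 tested genes). Of the 61, 26 passed the filter and 12 of these were past the threshold, 5 higher and 7 lower in METTL7A1. That is 46.2% of those tested, near the 42.1% of all genes, and their median log2 fold change was -0.02 against -0.03 over all genes. The list was drawn up with earlier results of these data known, so these p-values too are given as a description.

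Bmp7 was the only listed BMP or GDF ligand past the filter. The other 12 ligand genes on the list had at most 5 counts in any library, and Bmp2 and Gdf2 had none. Among the other receptors and co-receptors, 6 of 9 passed the filter and 1 was past the threshold. That was Rgmb, a co-receptor of BMPs, higher by a log2 fold change of 0.28 (SE 0.09, adjusted p = 0.0271, edgeR) amid neighbours with a median of 0.26. With the neighbour offset it came to 0.02 (adjusted p = 0.892, edgeR), and its call was lost in 6 of the 15 other settings, among them on leaving out replicate 2 or 3 of METTL7A1, or replicate 1 or 2 of mock. The type I receptor Acvr1 at -0.15, the type II receptors Acvr2a at 0.04 and Acvr2b at 0.14, and the co-receptors Rgma at -0.29 and Eng at 0.05 were not past it. Bmpr1b, Acvrl1 and Hjv, listed under its older name Hfe2, had at most 4 counts.

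Smad4, the partner that all receptor-activated Smads share, rose to 93.1 ± 2.80 cpm in METTL7A1, against 65.3 ± 2.34 cpm in mock (SD, n = 3 each). Its log2 fold change was 0.51 (SE 0.07, adjusted p = 0.00012, edgeR) and its neighbours' median 0.37. With the neighbour offset 0.14 remained, and the call was lost (adjusted p = 0.127, edgeR). Smad7, the other inhibitory Smad, was at 0.00 and not past the threshold.

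Of the 18 secreted antagonists and modulators listed, 8 were tested and 6 of these were past the threshold, 1 higher and 5 lower, against 42.1% of all tested genes in either direction. With so few genes nothing is read from this share. Fst, which encodes follistatin, a binder of activins and some BMPs, fell from 2.62 ± 0.846 to 1.00 ± 0.104 cpm, a log2 fold change of -1.38 (SE 0.27, adjusted p = 0.00188, edgeR). With 17, 33 and 24 counts in METTL7A1, Fst lay near the filter there and passed it through the mock libraries, so its call is a description. Without the filter its log2 fold change was -1.35 (adjusted p = 3.8e-06, edgeR). Fstl1, a secreted follistatin-like glycoprotein, fell by 1.17 on the log2 scale (SE 0.18, adjusted p = 0.000354, edgeR). Nbl1, a DAN family antagonist, fell by 0.72 (SE 0.17, adjusted p = 0.0057, edgeR). Fstl3, a close relative of follistatin, went the other way, from 11.5 ± 1.23 to 19.4 ± 3.93 cpm (log2 fold change 0.77, SE 0.15, adjusted p = 0.00162, edgeR). The protease gene Bmp1, which cleaves the antagonist chordin and is no BMP ligand, fell by 0.30 (SE 0.09, adjusted p = 0.0209, edgeR), with a neighbour median of -0.21. With the neighbour offset Bmp1 came to -0.09 (adjusted p = 0.483, edgeR), and the call ended too when replicate 3 of METTL7A1, or replicate 1 or 2 of mock, was left out. Dand5, another DAN family member, fell by 0.65 (SE 0.24, adjusted p = 0.0482, edgeR), a call that was lost in 11 of the 15 other settings tried. Twsg1 at 0.13 and Crim1 at -0.17 were not past the threshold.

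The other 10 antagonist genes did not pass the filter. Among them was Nog, the gene of noggin, with 2, 5 and 6 counts in METTL7A1 against 19, 21 and 23 in mock. Without the filter, 28601 genes were tested, 20.9% were past the threshold, and Nog was among them with a log2 fold change of -2.33 (SE 0.46, adjusted p = 5.3e-06, edgeR). The targets Dlx2, with 1, 3 and 1 counts against 10, 10 and 9, and Gata2, with 1, 1 and 2 against 10, 9 and 6, were past it as well, from very few counts. These 3 were named after their values were seen.

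Of the membrane and intracellular inhibitors, 5 of 6 passed the filter. Tob1, which encodes an antiproliferative protein that binds Smads, was higher by 0.37 (SE 0.13, adjusted p = 0.0453, edgeR), a call lost in 6 of the 15 other settings: with a replicate block and on leaving out any single library other than mock replicate 2. Ski, a Smad corepressor gene, fell by 0.33 (SE 0.07, adjusted p = 0.00381, edgeR), and Smurf1, a ubiquitin ligase gene for SMAD1 and SMAD5, fell by 0.41 (SE 0.07, adjusted p = 0.000533, edgeR). The neighbours of Smurf1 had a median of -0.36, and its call was lost with the neighbour offset. Smurf2 at -0.08 and Fkbp1a at 0.22 were not past the threshold, and the pseudoreceptor gene Bambi had at most 3 counts. Without the filter Fkbp1a was past the threshold, at 0.26 (adjusted p = 0.0222, edgeR).

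Of the further target genes only Id4 and Runx2 passed the filter, and neither was past the threshold, at -0.00 and -0.06. The other 8 had at most 10 counts in any library, with Msx1, Msx2 and Dlx5 at 0 throughout. Of the E proteins that ID proteins bind, Tcf4 was higher by 0.49 (SE 0.07, adjusted p = 0.000298, edgeR), amid neighbours with a median of 0.35, and with the neighbour offset its call was lost. Tcf3 at 0.08 and Tcf12 at -0.03 were not past the threshold.

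**Figure D5:**
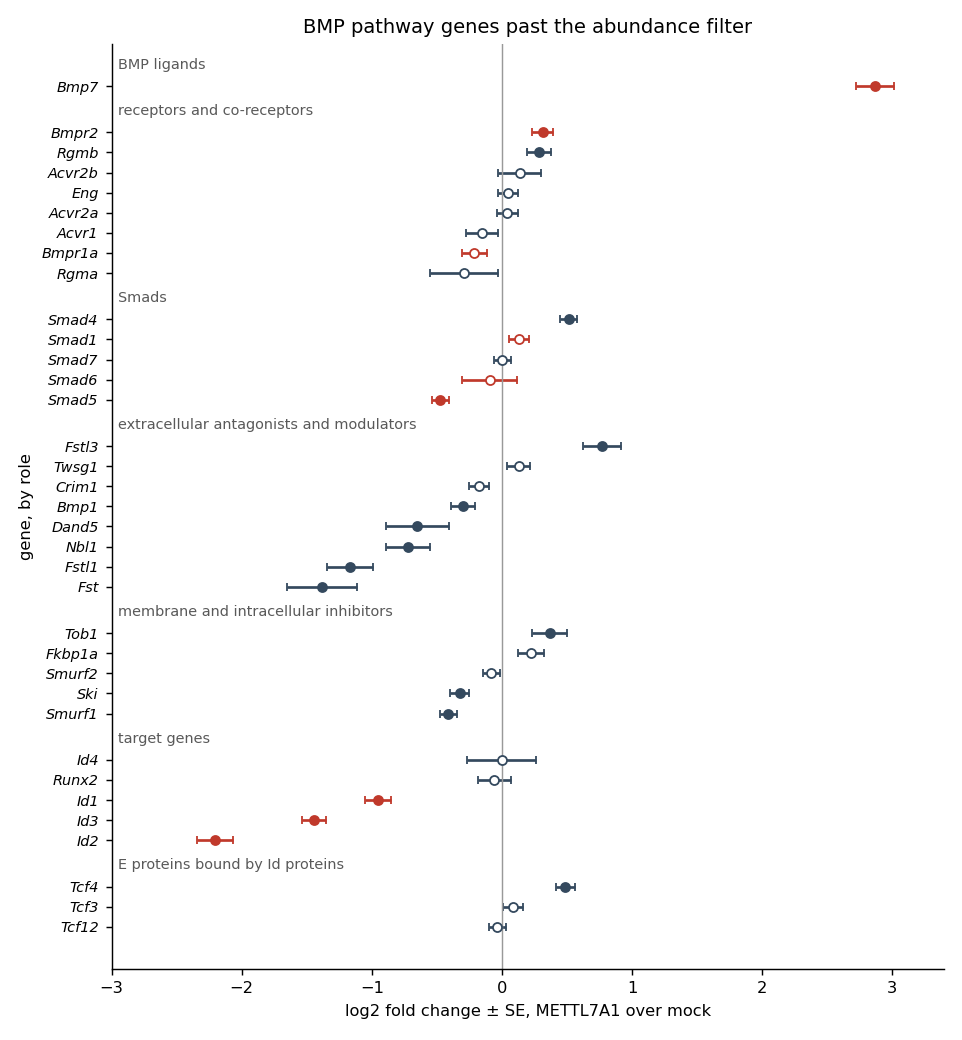
Log2 fold change of METTL7A1 over mock for the 35 tested pathway genes, ordered by role, with SE as bars, the 9 tested of the 10 chosen genes in red, and filled points for an adjusted p under 0.05. For the genes in red the filling is a description only. Bmp7 at 2.87 is the highest point and Id2 at -2.20 the lowest, and 5 of the 6 called antagonists lie under 0.

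The genes whose centred log2 levels over the 6 libraries lay nearest to each Id gene, by Euclidean distance among the 11660 genes averaging 50 or more counts a library, were different for each. For Id1 they were Fam110c (distance 0.109), Ucp2 (0.128) and Pros1 (0.137). For Id2 they were Mcam (0.203), Cadps2 (0.253) and Marcks (0.271), and for Id3 Adamts8 (0.224), Ror1 (0.230) and Wisp1 (0.239). The points are 6 libraries in 2 groups, and nearness on them is a description only.

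Id2 had the largest fold of the Id genes, and part of the sequence before its start is shown because BMP-activated Smads are known to bind GC-rich GGCGCC elements. RefSeq (GRCm38.p6) held windows of 250 bases upstream for 8 of the 10 genes, with entries missing for Bmp7 and Id1. The stretch below runs from 250 to 162 bases before the RefSeq start of Id2, at chr12:25096254-25096342 on the minus strand, within an intron (chr12:25096254-25096604) of a longer annotated Id2 transcript (chr12:25093799-25097140), and the capitals mark GGCGCC.
Id2 upstream: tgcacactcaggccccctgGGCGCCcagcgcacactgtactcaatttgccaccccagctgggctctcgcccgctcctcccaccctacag
The motif GGCGCC, which reads the same on both strands, was present in 9.59% of all 32851 windows. It was found in the windows of 4 of the genes: Id2, Bmpr1a, Bmpr2 and, in 1 of its 3 windows, Smad5. Of these, Id2 and Smad5 were lower, Bmpr2 higher and Bmpr1a not past the threshold. The part of the motif in these values was not tested. The general Smad element GTCT, or AGAC on the other strand, was present in 82.9% of all windows and in those of Bmp4, Id2, Id3, Smad5 and Smad6. A match of letters is a description of the window and no sign of binding.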

How the data were processed

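The deposited table held whole-number counts per gene and library, with the summed exon length of each gene, which served only for levels per kilobase. Per the labels and the study's methods, the authors trimmed reads with BBDuk, aligned them to mm10 with STAR and counted them with featureCounts on Ensembl gene models to give these counts. How strand and multi-mapping reads were counted is not given in the sources used here, so overlapping genes on opposite strands cannot be told apart.

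Counts of 3 METTL7A1 and 3 mock libraries were fitted with edgeR 4.0.16 (R 4.3.3): genes with at least 1 cpm in at least 3 libraries, TMM scaling, quasi-likelihood test, Benjamini-Hochberg adjustment over all 13166 tested genes, threshold 0.05. The SE is the absolute log2 fold change divided by the square root of F. The 10 genes and the pathway lists were chosen with earlier results of these data known. All 10 are named with every library, list genes past the filter with their log2 fold change (and SE where past the threshold), those under it by their highest count, and the 3 genes nearest to each Id gene. Alternatives were RLE and upper-quartile scaling, no filter, at least 10 counts, leaving out the 20 most abundant genes, a replicate block, DESeq2 1.42.0, limma-voom (limma 3.58.1), a neighbour offset and leaving out each library. Scripts were tested on simulated data. Gene positions were those deposited with the counts. Sequences and their coordinates came from GENCODE vM21 (GRCm38) and RefSeq. Intervals and floors cover counting error only.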

Additional observations from a re-analysis of the deposited data

How the results depend on the processing

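Since the 10 genes were chosen on this same contrast, their values over 15 other settings are given as ranges only, for Bmp7 (log2 fold change 2.73 to 3.00), Bmpr2 (0.27 to 0.37), Id1 (-1.20 to -0.89), Id2 (-2.27 to -1.73) and Id3 (-1.52 to -1.38). At the study's limits 2 genes passed, or 3 without mock replicate 3, where Id3 came to -1.52. With the neighbour offset the median of the tested genes turned from -0.21 to 0.0199 (-0.27 to -0.12 on leaving out each library), Bmpr1a from -0.21 to 0.0199 and Smad5 from -0.47 to 0.0453. Smad1 went from 0.13 to 0.31 with this offset. Of the other pathway genes 12 were past the threshold, 15 without the filter, 9 with a replicate block, 11 with DESeq2 and with limma-voom, 8 with the neighbour offset and 8 to 11 on leaving out each library, the lowest without METTL7A1 replicate 3 and without mock replicate 1. The calls of Rgmb, Tob1, Bmp1 and Dand5 were lost in 6, 6, 4 and 11 settings. Without the filter Fkbp1a was gained, beside Nog, Dlx2 and Gata2, while the Dand5 call was lost. Directions also turned for genes near 0. With the neighbour offset Smad7 came to -0.35 and Tcf3 to -0.24, both then past the threshold, Smurf2 to 0.0209, Fkbp1a to -0.0211, Runx2 to 0.15, Tcf12 to 0.10 and Id4 to 0.15. Id4 came to 0.0047 with RLE scaling, 0.0074 with upper-quartile scaling, 0.034 without the filter, 0.0014 at 10 counts, 0.018 without the most abundant genes and 0.0135 with DESeq2, and Tcf12 to 0.000897 without the filter. On leaving out each library the ranges reached past 0 for Id4 (-0.19 to 0.14), Smad7 (-0.0193 to 0.0357), Runx2 (-0.15 to 0.12), Eng (-0.0047 to 0.11), Smad6 (-0.19 to 0.0431), Acvr1 (-0.23 to 0.0157) and Acvr2a (-0.0133 to 0.085). The causes were not tested. The replicate numbers showed no evident pairing of the libraries (correlations of same-numbered deviations -0.15, 0.20 and -0.37), though so few values cannot settle this. Depth limited Smad6 and Bmp4 and the genes under the filter.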
